A study of Mus musculus with 8 samples.

Results

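The urea cycle turns ammonia, which is toxic, into urea in hepatocytes. Its first steps run in mitochondria and the later ones in the cytosol, so ornithine, citrulline and aspartate are carried across the inner mitochondrial membrane. In the liver the cycle is most active in periportal hepatocytes, while pericentral hepatocytes hold glutamine synthetase, which removes the ammonia that escapes. Glutaminase and glutamate dehydrogenase feed the cycle with ammonia. The genes described here are Nags, Cps1, Otc, Ass1, Asl and Arg1 (the activator-forming enzyme and the enzymes of the cycle), the carriers Slc25a15 and Slc25a13, and the ammonia-releasing enzymes Gls2 and Glud1. They were chosen by symbol, by a rule that uses no measured value, though earlier results of these data were known. All 10 were found among the 56077 rows of the deposited count table. All 10 also passed the filter on low counts.

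Total RNA of whole liver, freed of ribosomal RNA, was sequenced in 4 mice heterozygous for eIF2α and 4 wild-type mice. eIF2α is the subunit of translation initiation factor eIF2 whose phosphorylation lowers general protein synthesis and raises translation of the transcription factor ATF4, an inducer of amino acid synthesis genes. The heterozygous genotype is given as Eif2a flox/+ in the genotype label and as eIF2α flox/+ in the sample titles, and no label names a recombinase, so the floxed allele's state and the cells it acts in are not stated. Wild-type mice served as controls, and both groups were C57BL/6, 6 months old, lean, fed freely and killed in the fed state in the morning. The growth text calls mice of both groups wild-type. Heterozygous libraries are called H11, H12, H15 and H75, and those of wild-type mice W32, W33, W76 and W90, after the columns of the table. Nothing states that the animals came from separate litters, so p-values measure the spread between these samples.

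Library totals were 22177979 to 28564357 counts in heterozygous and 25626355 to 27799097 counts in wild-type livers. Eif2s1, the gene that encodes eIF2α, was at 20.5, 22.3, 20.8 and 25.1 CPM (counts scaled to a common library size with TMM factors) in H11, H12, H15 and H75, against 28.4, 28.8, 32.8 and 30.1 CPM in W32, W33, W76 and W90. The groups did not overlap (edgeR adjusted p = 0.315). By exact permutation of the 8 libraries, two-sided, p was 0.0286, which is the lower limit for 4 against 4. Its log2 fold change was -0.44 (95% interval -0.65 to -0.23). Albumin transcripts took 58999 to 82290 CPM over the 8 libraries. Markers of kidney and intestine (4 genes), which also hold some of the members, summed to 15.7 to 45.0 CPM in heterozygous and 18.8 to 27.4 CPM in wild-type livers, with Slc12a1 at 0 and Umod at most 0.150 CPM. The rest of that sum came from Vil1 and Lgals4. The 7 hepatocyte markers found summed to 94519 to 102884 CPM in heterozygous and 79845 to 109836 CPM in wild-type livers, with 3 of 7 higher at an unadjusted p under 0.05, Hnf4a among them, against 699 of all 14261 genes tested. Summed markers of Kupffer cells (6 genes, 75.6 to 182 CPM in heterozygous and 74.9 to 185 CPM in wild-type livers), sinusoidal endothelium (5 genes, 112 to 168 and 97.2 to 134 CPM), stellate cells (6 genes, 92.2 to 247 and 169 to 223 CPM) and cholangiocytes (5 genes, 40.9 to 101 and 34.1 to 87.1 CPM) overlapped between the genotypes. Neutrophil markers (4 genes) summed to 0.382 to 3.47 CPM in heterozygous and 0.303 to 0.715 CPM in wild-type livers, and both of the 2 that passed the filter on low counts were higher at an unadjusted p under 0.05. At that p 1 endothelial and 1 cholangiocyte marker were also higher, no listed marker was lower, and edgeR called 0 of them. The part of these cell types in any result was not tested.

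None of the 10 urea cycle and ammonia disposal genes passed the test between heterozygous and wild-type livers. At an adjusted p under 0.05 edgeR called 0 of 10, against 0.00% of the 14261 genes tested, and at an unadjusted p under 0.05 also 0 of 10, against 9.34% of all genes. DESeq2 called 0 of 10, against 1.16% of the 13146 genes it gave an adjusted p. With limma-voom 0 of 10, and 0 of all genes, passed. In 0 of 10 members did the heterozygous libraries lie wholly above or below the wild-type ones, a separation seen in 4.38% of all genes. The log2 fold changes of the members ran from -0.061 to 0.18, with a median of 0.065 against 0.0051 over all genes, and their median absolute size was 0.065 against 0.15 over all genes. Of the 10, 8 had a positive log2 fold change, against 51.1% of all genes, and 4 of 10 did when library totals alone were the scaling, against 34.4% of all genes, whose median was then -0.079.

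Start-site sequences of members are shown beside that of Asns, the gene of asparagine synthetase and a known ATF4 target, because Asns had the highest log2 fold change of the lists described here. Asns transcripts were at 10.1, 13.9, 4.25 and 32.1 CPM in H11, H12, H15 and H75, against 0.715, 1.72, 1.35 and 1.36 CPM in W32, W33, W76 and W90. All heterozygous values lay above all wild-type values (log2 fold change 3.55, SE 0.57, edgeR adjusted p = 0.196, range 2.04e-05 to 0.588 over 17 alternatives). Without H15 edgeR called Asns (adjusted p = 0.00339). RefSeq windows of 300 bases, from 250 before to 50 after a start site (GRCm38.p6), matched 6 of the 10 members in 7 windows, without Cps1, Asl, Arg1 and Gls2. The letters TGATGNAA, the core of the composite element bound by C/EBP and ATF proteins, stand in 3.97% of 32851 such windows on either strand. They stand in the Asns window from position -23, counted from the start site, and in that of Got1 from -102 on the other strand. Got1 is a shuttle gene described further on. The letters are in 0 of the 7 member windows, which at a share of 3.97% does not set the members apart. The windows of the other listed genes are not described for these letters, so no share over the lists can be set beside the 3.97%. Any link of the letters to a log2 fold change was not tested. The letters TGACG, the core of a cAMP response element, stand in 20.8% of all windows, among them those of Nags, Slc25a13 and Asns. The full palindrome TGACGTCA, the C/EBP cores TTGCNNCAA and TTGCNNAA, the HNF4 core CAAAGTCCA and the TATA box TATAAA were in 0 of the 7 member windows, against 1.79, 2.08, 10.8, 0.475 and 13.6% of all. CCAAT was in the Slc25a13 window from position -22, and in 37.4% of all. The windows of Ass1 and Otc hold none of these letters. A match is a description of letters and not a bound site. Shown 5′ to 3′ on the gene's strand are Asns with TGATGNAA in capitals, Slc25a13 and Nags with TGACG (read on the other strand in Nags) in capitals, and Ass1 and Otc with no match. They lie at chr6:7693160-7693459 (minus strand), chr6:6217124-6217423 (minus strand), chr11:102145263-102145562 (plus), chr2:31470020-31470319 (plus) and chrX:10252055-10252354 (plus).
Asns: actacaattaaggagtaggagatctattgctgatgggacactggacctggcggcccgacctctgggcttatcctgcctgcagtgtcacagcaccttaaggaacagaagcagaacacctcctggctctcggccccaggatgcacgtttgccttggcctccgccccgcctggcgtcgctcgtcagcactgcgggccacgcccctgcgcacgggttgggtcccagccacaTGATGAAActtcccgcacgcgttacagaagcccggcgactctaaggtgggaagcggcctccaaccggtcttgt
Slc25a13: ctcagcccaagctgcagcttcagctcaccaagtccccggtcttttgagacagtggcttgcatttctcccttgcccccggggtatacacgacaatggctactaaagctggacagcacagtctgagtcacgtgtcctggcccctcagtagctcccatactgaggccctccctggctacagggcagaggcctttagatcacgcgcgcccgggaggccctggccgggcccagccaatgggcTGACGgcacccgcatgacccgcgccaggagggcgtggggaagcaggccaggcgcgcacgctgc
Nags: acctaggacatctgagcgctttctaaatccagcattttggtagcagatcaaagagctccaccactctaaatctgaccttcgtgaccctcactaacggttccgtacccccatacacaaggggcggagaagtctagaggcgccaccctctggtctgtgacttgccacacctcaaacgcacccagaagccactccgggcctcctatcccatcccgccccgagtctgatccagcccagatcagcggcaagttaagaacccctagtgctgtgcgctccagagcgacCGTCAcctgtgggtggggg
Ass1: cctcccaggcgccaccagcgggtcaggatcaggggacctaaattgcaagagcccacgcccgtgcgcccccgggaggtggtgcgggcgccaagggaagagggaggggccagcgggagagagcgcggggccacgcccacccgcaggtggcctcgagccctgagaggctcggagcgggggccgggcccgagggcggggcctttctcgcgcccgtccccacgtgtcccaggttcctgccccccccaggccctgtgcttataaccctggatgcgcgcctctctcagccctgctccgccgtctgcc
Otc: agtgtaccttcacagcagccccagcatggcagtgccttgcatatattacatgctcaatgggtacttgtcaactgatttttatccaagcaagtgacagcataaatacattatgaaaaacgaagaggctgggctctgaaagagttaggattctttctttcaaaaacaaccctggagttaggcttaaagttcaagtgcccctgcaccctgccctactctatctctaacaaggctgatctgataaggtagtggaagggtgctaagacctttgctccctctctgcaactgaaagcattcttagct

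Nags makes N-acetylglutamate, the activator without which carbamoyl phosphate synthetase is inactive. Nags was at 59.8, 58.8, 61.3 and 56.4 CPM in H11, H12, H15 and H75, against 55.5, 68.4, 61.0 and 61.4 CPM in W32, W33, W76 and W90. The heterozygous values all lay inside the wild-type range. The log2 fold change was -0.060 (95% interval -0.25 to 0.13, edgeR adjusted p = 0.856), with -0.0032 without W33 and -0.11 without W32. Its level per kilobase was the lowest of the members, and its exons overlap Gm11586 on the other strand. Its deposited counts were fractional in all 8 libraries, as were those of Ass1 and Glul, and those of Glud1 in 3.

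Cps1 encodes the mitochondrial carbamoyl phosphate synthetase, the entry step of the cycle. Its level was 3751, 3194, 3694 and 3211 CPM in H11, H12, H15 and H75, against 2928, 3495, 3293 and 2472 CPM in W32, W33, W76 and W90. H11 and H15 were above every wild-type library, whereas H12 and H75 lay among them, and W90 was the lowest of all. The mean was 3463 ± 301 CPM in heterozygous and 3047 ± 449 CPM in wild-type livers (SD, n = 4 each). This gave a log2 fold change of 0.18, the highest among the members (95% interval -0.11 to 0.48, edgeR adjusted p = 0.691). Without W90 it was 0.095, and without W33 0.26.

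Otc, on the X chromosome, encodes ornithine transcarbamylase, which joins carbamoyl phosphate to ornithine to give citrulline. Otc transcripts reached 341, 375, 289 and 426 CPM in H11, H12, H15 and H75, against 337, 311, 409 and 315 CPM in W32, W33, W76 and W90. H75 held the highest value and H15 the lowest, so the heterozygous libraries spanned the whole wild-type range. The log2 fold change was 0.060 (95% interval -0.25 to 0.37, edgeR adjusted p = 0.918), and -0.036 without H75.

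In the cytosol, argininosuccinate synthetase (Ass1) condenses citrulline with aspartate. Ass1 stood at 2366, 2213, 2682 and 2989 CPM in H11, H12, H15 and H75, against 2211, 2438, 2460 and 2143 CPM in W32, W33, W76 and W90. H15 and H75 were above all wild-type libraries and the others among them. The log2 fold change was 0.15 (95% interval -0.12 to 0.42, edgeR adjusted p = 0.732), and 0.064 without H75.

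Argininosuccinate lyase (Asl) then releases arginine and fumarate. Asl was measured at 458, 472, 432 and 530 CPM in H11, H12, H15 and H75, against 417, 404, 459 and 444 CPM in W32, W33, W76 and W90. H12 and H75 exceeded every wild-type library, and H11 lay just under W76. The mean was 473 ± 41.6 CPM in heterozygous and 431 ± 25.1 CPM in wild-type livers (SD, n = 4 each). The difference had a log2 fold change of 0.13 (95% interval -0.080 to 0.35, edgeR adjusted p = 0.691), and 0.073 without H75.

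Arginase (Arg1) closes the cycle by splitting arginine into urea and ornithine. For Arg1 the values were 1164, 914, 1232 and 1184 CPM in H11, H12, H15 and H75, against 1093, 1070, 1111 and 1178 CPM in W32, W33, W76 and W90. H12 was the lowest library and H15 the highest. The log2 fold change was 0.014 (95% interval -0.24 to 0.26, edgeR adjusted p = 0.982), the smallest in size among the members. It turned negative without H11 (-0.0032), H15 (-0.033), H75 (-0.013) or W33 (-0.0025), and was 0.10 without H12. Arg2, the mitochondrial arginase found mainly outside the liver, was under the filter on low counts.

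**Figure D1:**
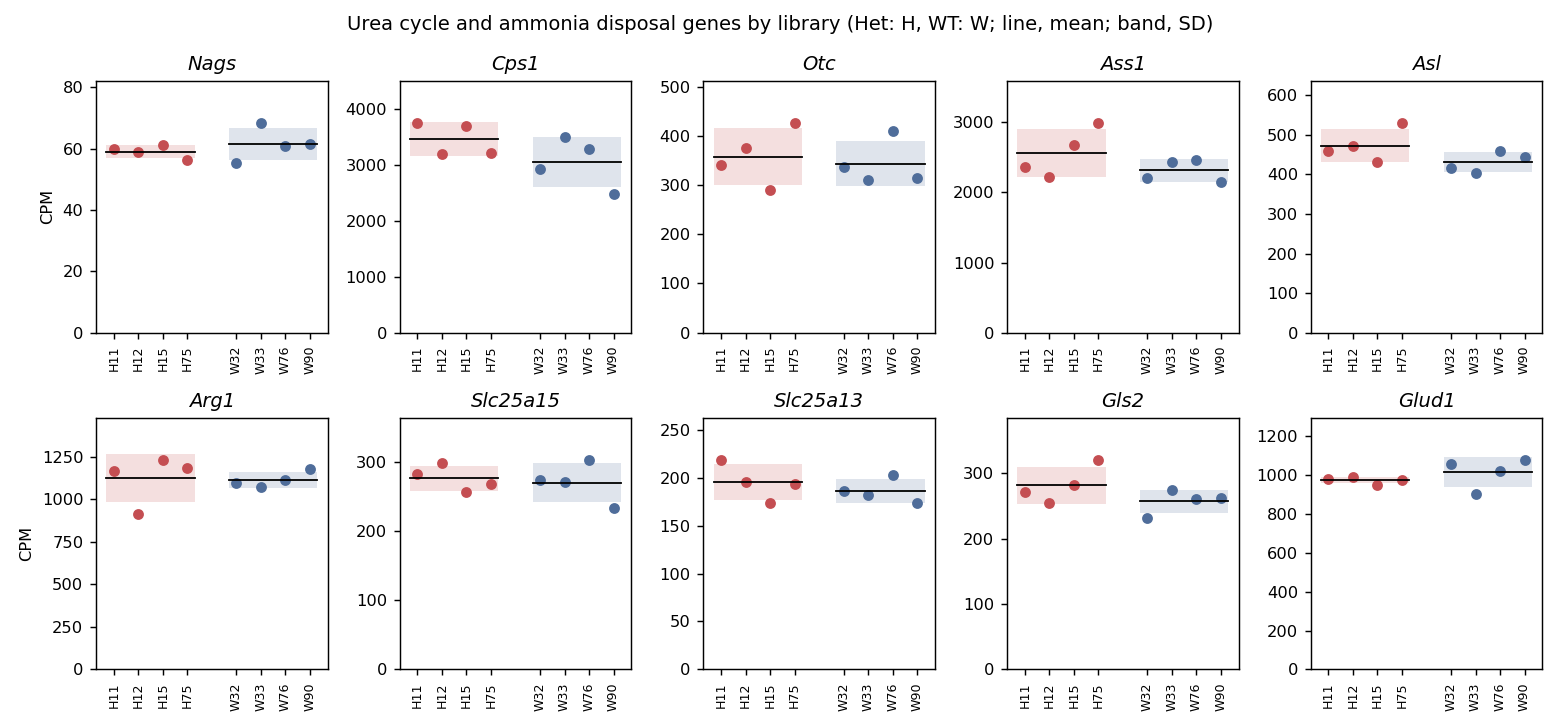
CPM (TMM-scaled, linear axis from 0) of each member in the 4 heterozygous (H) and 4 wild-type (W) libraries; the line is the group mean and the band its SD. The groups overlap in every panel, with Otc of H75 at 426 CPM and of H15 at 289 CPM as an example of the spread within heterozygous livers.

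The carriers that link the mitochondrial and cytosolic steps overlapped as well. Slc25a15, which exchanges ornithine for citrulline, was at 283, 298, 256 and 268 CPM in H11, H12, H15 and H75, against 273, 271, 303 and 233 CPM in W32, W33, W76 and W90. The heterozygous values lay inside the wild-type range (log2 fold change 0.033, 95% interval -0.19 to 0.26, edgeR adjusted p = 0.943). The sign turned negative without H12 (-0.0061) or W90 (-0.033). Slc25a13 encodes citrin, the aspartate-glutamate carrier that supplies the cytosol with aspartate for Ass1. It was at 219, 196, 174 and 194 CPM in H11, H12, H15 and H75, against 186, 182, 203 and 174 CPM in W32, W33, W76 and W90. H11 was above the wild-type libraries and the others among them or level with the lowest (log2 fold change 0.070, 95% interval -0.14 to 0.28, edgeR adjusted p = 0.847). Without H11 the value was 0.013.

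The enzymes that release ammonia inside mitochondria had log2 fold changes of opposite sign, neither past the test. Gls2, the liver-type glutaminase, was at 271, 254, 282 and 321 CPM in H11, H12, H15 and H75, against 231, 274, 261 and 262 CPM in W32, W33, W76 and W90. H15 and H75 lay above the wild-type libraries and W32 below all others (log2 fold change 0.13, 95% interval -0.091 to 0.36, edgeR adjusted p = 0.707). Without H75 the value was 0.064. Its exons overlap those of Spryd4, which is transcribed in the opposite direction, and no source here states a strand setting for the counts. Glud1, glutamate dehydrogenase, was at 981, 989, 951 and 974 CPM in H11, H12, H15 and H75, against 1059, 902, 1021 and 1079 CPM in W32, W33, W76 and W90. All heterozygous values lay inside the wild-type range, between W33 and the other 3 (log2 fold change -0.061, 95% interval -0.27 to 0.14, edgeR adjusted p = 0.868). Without W33 it was -0.11 and without W90 -0.032. Glud1 had the narrowest heterozygous spread of the members, a coefficient of variation of 1.71%, against 7.84% in wild-type livers.

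The intervals bound how large a difference these libraries leave possible. Taken gene by gene, the widest upper bound was that of Cps1, 1.39-fold, and the lowest lower bound that of Glud1, 0.832-fold. Eif2s1 had a fold of 0.737, heterozygous over wild type, and no member's interval reached down to its log2 fold change of -0.44. The interval of Eif2s1 itself, -0.65 to -0.23, overlapped those of Otc, Arg1, Nags and Glud1. The biological coefficient of variation that edgeR estimated was 11.2% (Nags) to 16.2% (Otc), with a median of 13.1% for the members against 17.5% for all genes. Counts per member and library ran from 1127 (Nags, H75) to 97812 (Cps1, W33). In the authors' deposited table of the same comparison, the log2 fold changes of the members ran from -0.058 (Glud1) to 0.19 (Cps1), with adjusted p from 0.739 to 0.990, and 0 of 10 were marked significant. In the authors' comparison Eif2s1 had an adjusted p of 0.0208 and was not marked. Their mark is thus stricter than an adjusted p under 0.05. Asns was marked there, with an adjusted p of 2.36e-05.

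**Figure D2:**
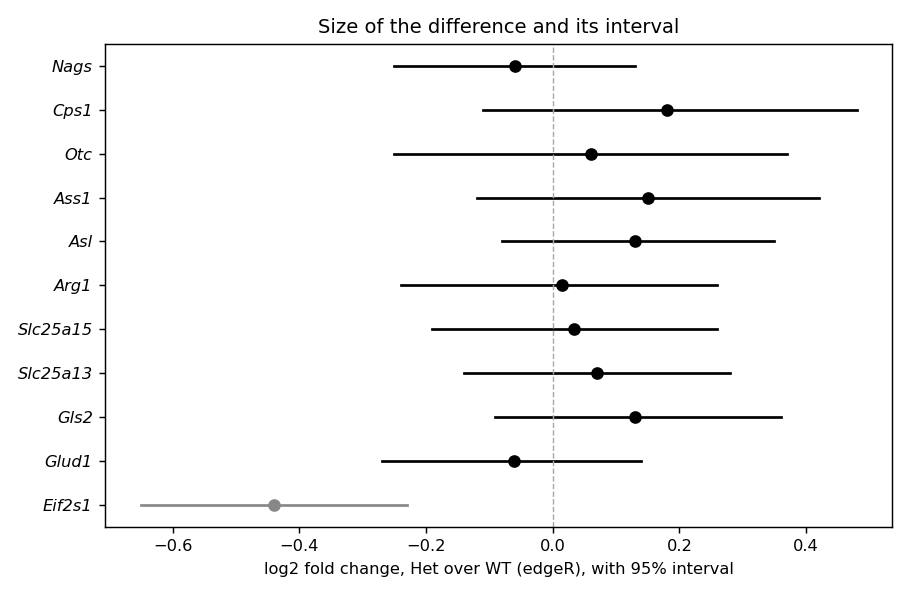
Log2 fold change of each member, heterozygous over wild type (points, edgeR), with its 95% interval (lines), and Eif2s1 in grey below. All 10 member intervals include 0, and the Cps1 interval reaches 0.48, the highest bound.

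Which library was highest or lowest differed from member to member. H75 was the highest of the 8 libraries for Otc, Ass1, Asl and Gls2, and H11 for Cps1 and Slc25a13. This order is of TMM-scaled CPM and depends on the scaling, since H75 had the lowest TMM factor (0.9), which raises its CPM. H15, with a smaller library total than H75, had more unscaled counts of Ass1 (63126 against 59753) and Gls2 (6642 against 6412). W90 was the lowest for Cps1, Ass1 and Slc25a15, and H15 for Otc and Slc25a13. H15 also held the highest Arg1. The median of the members relative to the wild-type mean was 0.069, 0.029, -8.2e-05 and 0.089 on the log2 scale in H11, H12, H15 and H75, against -0.035, -0.0089, 0.092 and -0.047 in W32, W33, W76 and W90. W76 was thus the highest of all, and it had 8 of 10 members above the wild-type mean, against 7 in H11 and H75. Together the 10 genes took 0.815 to 1.07% of counts in heterozygous and 0.863 to 0.975% in wild-type libraries. Without H15, the library whose removal moved the count over all genes most, edgeR called 0 of 10 members, against 1.74% of all genes.

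**Figure D3:**
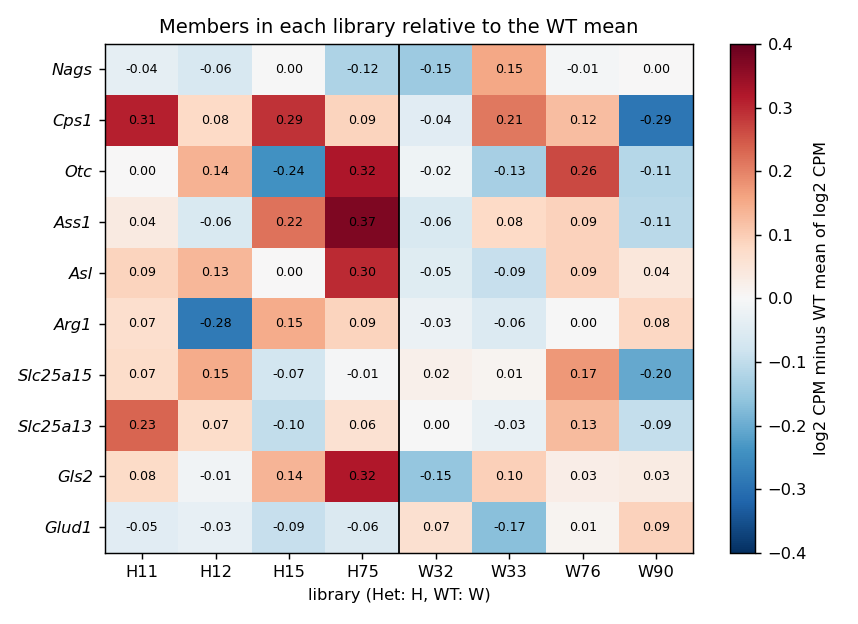
Log2 CPM of each member in each library minus the wild-type mean of log2 CPM, heterozygous libraries left of the line and wild-type libraries right of it. High and low cells are scattered over libraries, with Ass1, Otc, Gls2 and Asl high in H75, Arg1 low in H12 and Cps1 low in W90. CPM is TMM-scaled, and H75 had the lowest TMM factor (0.9).

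Scaled by gene length, the levels of the members spanned a wide range, and their order was alike in both genotypes. Ass1 was highest with 1511 ± 203 CPM per kilobase in heterozygous and 1364 ± 94.1 in wild-type livers (SD, n = 4 each), and no library of the next gene reached its range. Arg1 (761 ± 96.5 in heterozygous, 754 ± 31.6 in wild-type livers) and Cps1 (623 ± 54.2 and 549 ± 80.9) followed, with ranges that overlapped over the 8 libraries. Glud1 (287 ± 4.92 and 300 ± 23.5) and Asl (259 ± 22.8 and 236 ± 13.8) overlapped too. Otc (154 ± 25.0 and 148 ± 19.6) overlapped with Gls2 (means 110 and 100, range 89.7 to 125 over the 8 libraries), and Slc25a15 (80.5 ± 5.36 and 78.7 ± 8.33) with Slc25a13 (62.7 ± 5.84 and 59.7 ± 3.89). Compared within each library, Arg1 was above Cps1, Otc above Gls2 and Slc25a15 above Slc25a13 in all 8. Glud1 was above Asl in 7. Nags was lowest with 29.1 ± 1.01 CPM per kilobase in heterozygous and 30.4 ± 2.60 in wild-type livers, apart from all others. These levels use the length in the deposited table. With merged exons of GENCODE M21, an alternative chosen after the data were seen, Cps1 ranked above Arg1 and Slc25a13 above Slc25a15. Otc was above Gls2 in only 5 of 8 libraries with these lengths, and the ranges of Asl and Otc overlapped. The levels of Asl (97.9 in heterozygous and 89.3 in wild-type livers), Otc (84.3 and 80.9), Slc25a15 (49.1 and 48.0) and Arg1 (504 and 500 CPM per kilobase) were then over 1.5 times lower.

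**Figure D4:**
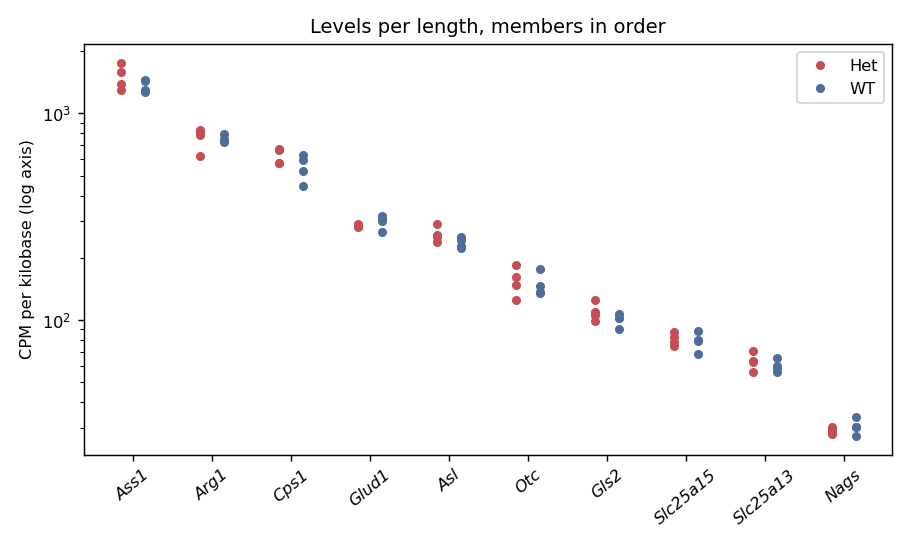
CPM per kilobase of gene length (log axis) for each member in the order of its mean, with 4 heterozygous libraries at left and 4 wild-type libraries at right of each position. Ass1 averages 1511 and 1364 and Nags 29.1 and 30.4 CPM per kilobase in heterozygous and wild-type livers.

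Ratios within a library, which do not depend on its scaling, were compared with exact two-sided permutation tests adjusted over 4 ratios of levels per kilobase (smallest possible p 0.0286). Cps1 to Glul, the glutamine synthetase of pericentral hepatocytes, was 2.46, 2.11, 1.94 and 1.94 in H11, H12, H15 and H75, against 1.63, 2.45, 1.83 and 1.93 in W32, W33, W76 and W90 (exact p = 0.343, adjusted 0.914). The ratio of Gls2 to Glul averaged 0.371 ± 0.0417 in heterozygous and 0.362 ± 0.0790 in wild-type livers (SD, n = 4 each, exact p = 0.714, adjusted 0.914). Ass1 to Asl averaged 5.84 ± 0.703 and 5.78 ± 0.533 (exact p = 0.914, adjusted 0.914), and Otc to Cps1 averaged 0.251 ± 0.0594 and 0.273 ± 0.0418 (exact p = 0.600, adjusted 0.914). Each ratio overlapped between the genotypes, with 2 of 4 heterozygous libraries above the wild-type mean. The exons of Glul overlap Mir8114 on the same strand and Teddm2 on the other. With the GENCODE lengths Ass1 to Asl averaged 10.9 ± 1.31 and 10.8 ± 0.991 and Otc to Cps1 0.137 ± 0.0325 and 0.149 ± 0.0229, so the size of a ratio rests on the length used and the comparison of genotypes does not. In whole liver, fewer cells of a zone and less RNA per cell cannot be told apart. Glul itself was at 765, 762, 959 and 831 CPM in H11, H12, H15 and H75, against 903, 717, 903 and 644 CPM in W32, W33, W76 and W90 (edgeR adjusted p = 0.908).

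Around the cycle, 6 lists of related genes also held 0 edgeR calls, and some of their genes had log2 fold changes greater in size than that of any member. That does not set the lists apart. The highest member value was 0.18, near the median absolute size of 0.15 over all genes, and the list medians of absolute size were 0.065 to 0.16. Of 19 tested ammonia and glutamine partner genes, Asns and Odc1 had an unadjusted p under 0.05, both higher, against 9.34% of all genes in either direction. DESeq2 called Asns in this list. Odc1, the ornithine decarboxylase that turns ornithine into polyamines, was at 57.3, 73.6, 58.8 and 70.8 CPM in H11, H12, H15 and H75, against 44.1, 44.4, 61.2 and 55.6 CPM in W32, W33, W76 and W90 (log2 fold change 0.34, SE 0.13, edgeR adjusted p = 0.484). Ddah1, which hydrolyses methylated arginine, had a log2 fold change of -0.21 and Asrgl1, an asparaginase, of -0.30, neither below an unadjusted p of 0.05. Slc38a5, Arg2 and Slc25a18 were under the filter.

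Among 11 tested aspartate and malate shuttle genes, those with an unadjusted p under 0.05 were 1 higher (Got1) and 2 lower (Slc25a10 and Pcx), again beside 9.34% of all genes. Got1, the cytosolic aspartate aminotransferase, was at 203, 130, 205 and 209 CPM in H11, H12, H15 and H75, against 150, 152, 128 and 95.7 CPM in W32, W33, W76 and W90. H12 lay inside the wild-type range and the other heterozygous libraries above it (log2 fold change 0.51, SE 0.18, edgeR adjusted p = 0.466). Slc25a10, the mitochondrial dicarboxylate carrier, was at 153, 132, 162 and 155 CPM in H11, H12, H15 and H75, against 248, 192, 201 and 209 CPM in W32, W33, W76 and W90. All heterozygous libraries lay below all wild-type ones (log2 fold change -0.50, SE 0.11, edgeR adjusted p = 0.315), and DESeq2 called it (adjusted p = 0.00538, range over alternatives 0.00538 to 0.649). Pcx, pyruvate carboxylase, had a log2 fold change of -0.31 and Fh1, fumarase, of 0.25.

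Of 16 hormonal and transcriptional regulators of the cycle, an unadjusted p under 0.05 was found for 3 higher genes (Cebpb, Hnf4a and Creb3l3) and 1 lower (Ppargc1a), beside the same 9.34% of all genes. Cebpb, a C/EBP factor induced in the acute phase, was at 35.3, 78.2, 17.1 and 49.8 CPM in H11, H12, H15 and H75, against 18.8, 18.7, 23.5 and 17.7 CPM in W32, W33, W76 and W90. H15 lay below all wild-type libraries and the others above them (log2 fold change 1.20, SE 0.37, edgeR adjusted p = 0.402). DESeq2 called it with an adjusted p of 0.0461, and without H12 the value was 0.79. Hnf4a, a nuclear receptor that sustains hepatocyte gene expression, was at 609, 671, 538 and 715 CPM in H11, H12, H15 and H75, against 537, 504, 528 and 495 CPM in W32, W33, W76 and W90. The groups did not overlap, by a margin of about a CPM at H15 (log2 fold change 0.30, SE 0.11, edgeR adjusted p = 0.458). Creb3l3, a liver transcription factor of the endoplasmic reticulum, had a log2 fold change of 0.42, and Ppargc1a, a coactivator of gluconeogenic genes, of -0.63. Without H15, which was lowest of all libraries for both Cebpb and Creb3l3, edgeR called these 2 genes, against 1.74% of all genes (adjusted p = 0.0223 for Cebpb and 0.0141 for Creb3l3, ranges over alternatives 0.0223 to 0.794 and 0.0141 to 0.862).

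The 15 glucagon and glucocorticoid responsive amino acid enzymes included 2 higher at an unadjusted p under 0.05, Got1 and Pck1, and 0 lower, beside 9.34% of all genes in either direction. The lists share genes, so these are not separate findings: Got1 was counted in the shuttle list too, and Pck1 is counted again among the periportal genes. Pck1, the gluconeogenic PEP carboxykinase, was at 2334, 2339, 1489 and 3350 CPM in H11, H12, H15 and H75, against 2210, 1526, 1208 and 1456 CPM in W32, W33, W76 and W90 (log2 fold change 0.57, SE 0.25, edgeR adjusted p = 0.523). H15 lay among the wild-type libraries, and without H75 the value was 0.36. Aass, a lysine-degrading enzyme, and Cth, cystathionine gamma-lyase, had log2 fold changes of 0.21 and 0.30.

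Among 15 periportal genes outside the members, G6pc and Pck1 had an unadjusted p under 0.05, both higher, and of 15 pericentral genes Cyp1a2 (higher) and Tbx3 (lower), each list beside 9.34% of all genes. G6pc, glucose-6-phosphatase, was at 374, 962, 640 and 540 CPM in H11, H12, H15 and H75, against 400, 274, 459 and 437 CPM in W32, W33, W76 and W90 (log2 fold change 0.68, SE 0.27, edgeR adjusted p = 0.484). Its H11 value lay among the wild-type libraries, and without H12 the log2 fold change was 0.40. Aldh1b1 and Pigr had log2 fold changes of -0.24 and 0.16. In the pericentral list Cyp1a2, a drug-metabolising cytochrome P450, was at 637, 539, 504 and 670 CPM in H11, H12, H15 and H75, against 341, 493, 468 and 352 CPM in W32, W33, W76 and W90, with no overlap (log2 fold change 0.51, SE 0.15, edgeR adjusted p = 0.390). Tbx3, a Wnt-responsive transcription factor, had a log2 fold change of -0.64, Lgr5, a receptor of the Wnt pathway, of -0.33, and Rgn, regucalcin, of -0.15. The median log2 fold change was 0.042 in the periportal and -0.086 in the pericentral list, against 0.065 in the members and 0.0051 over all genes.

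**Figure D5:**
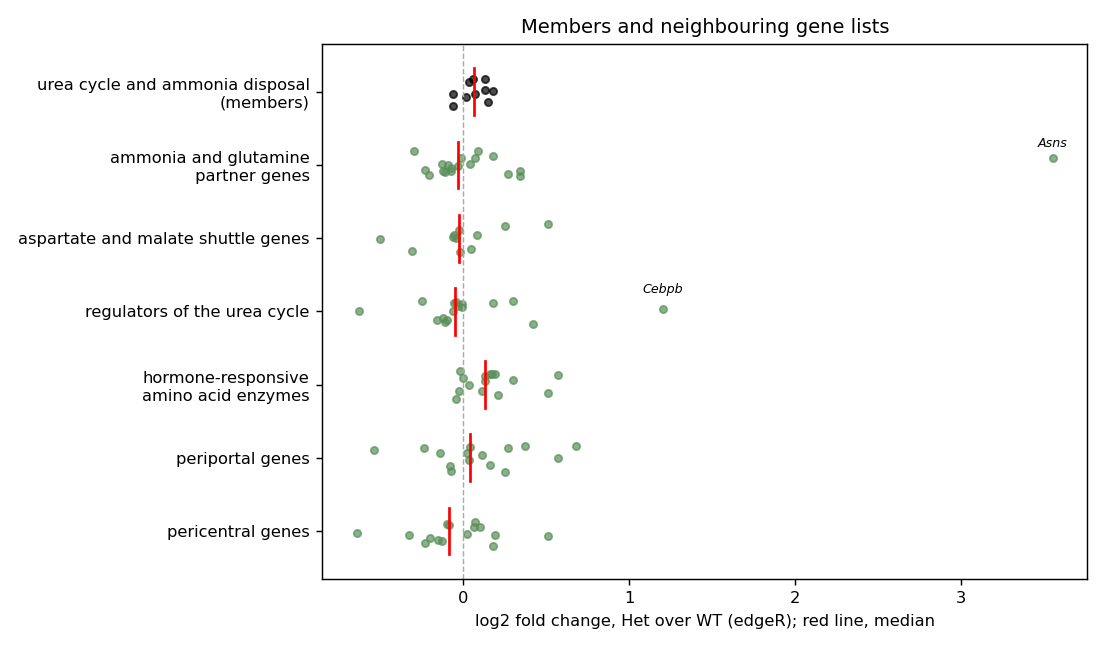
Log2 fold change, heterozygous over wild type (edgeR), of each tested gene in the members (top, black) and 6 related lists (green), with the list median in red; vertical scatter is for legibility. A gene shared by lists is drawn in each. The members lie within -0.061 to 0.18, and Asns (3.55) and Cebpb (1.20) stand apart in their lists.

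Cps1 had the lowest p of the members, and its pattern over the 8 libraries was set beside those of 11275 other genes with a mean of at least 1 CPM, by the root mean square difference of log2 CPM centred on each gene's mean. The 5 closest were Smchd1 (0.0596), Fam117b (0.0701), Gcat (0.0714), Klhl18 (0.0755) and Dnajc1 (0.0763), against a median of 0.274 over all these genes. Gcat, a mitochondrial enzyme of threonine breakdown, averaged 27.0 CPM in heterozygous and 23.2 CPM in wild-type livers. These genes shared with Cps1 a low value in W90 (centred log2 CPM -0.35 to -0.29). Of the other members, Slc25a15 was nearest to Cps1 (0.161, rank 457) and Otc farthest (0.266, rank 5254). A gene with equal values in all 8 libraries would lie 0.183 from Cps1, little farther than Slc25a15. The distances of the members thus do not show a pattern shared with Cps1.

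On GRCm38, the assembly that mm10 denotes, the members are all annotated as protein-coding in GENCODE M21. Nags lies on chromosome 11 from 102145513 to 102149477, Cps1 on chromosome 1 from 67123026 to 67231259 and Otc on chromosome X from 10252305 to 10321024. Ass1 lies on chromosome 2 from 31470207 to 31520672, Asl on chromosome 5 from 130011258 to 130029247 and Arg1 on chromosome 10 from 24915221 to 24927484. Slc25a15 lies on chromosome 8 from 22375551 to 22398597 and Slc25a13 on chromosome 6 from 6041218 to 6217173. Gls2 lies on chromosome 10 from 128194457 to 128210004 and Glud1 on chromosome 14 from 34310727 to 34345265. Counts cover whole genes and do not separate exons, introns or alleles.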

How the data were processed

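Liver RNA came from Trizol extraction with DNaseI and Ribo-zero steps, per the labels' protocols. The submitters' processing notes name SAMtools 1.9, GATK 3.8, Bowtie2 2.2.9 and fastp 0.19.5 and the build mm10, with no role. No source used here names the counting program or a strand setting. The authors deposited estimated counts per gene, not normalized (90.0% of values whole). Their table of comparisons gives a fold (ratio), log2 fold change, p-value, adjusted p-value and gene length, per the file headers.

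Estimated counts were rounded, filtered with filterByExpr (14261 genes left), scaled with TMM (0.9 to 1.06) and tested with edgeR 4.0.16 (quasi-likelihood, group only) in R 4.3.3, with Benjamini-Hochberg adjustment over all genes. Intervals are the log2 fold change plus or minus the 95% t quantile times its SE. Alternatives used DESeq2 1.42.0, limma 3.58.1 (voom), other scalings and filters, and each library left out. Every pair of libraries within a group differed beyond sampling noise (chi-square per gene 22.5 to 183). The code was tested on simulated data. Members and lists were chosen with earlier results of these data known. Named genes are the members, Eif2s1, Glul, up to 4 genes of lowest p per list and the 5 genes most like the member of lowest p. Column names carry no replicate number, so each was 1 replicate of its group.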

Additional observations from a re-analysis of the deposited data

Results flagged for a closer look

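Over 76 groups of 4 libraries looked at for the genes and ratios named, 2 held a library far from the other 3, where chance alone gives about 1 such group in 20. Got1 was at 130 CPM in H12, against 203 to 209 CPM in the other heterozygous libraries. Cth was at 296 CPM in H15, against 472 to 488 CPM in the other heterozygous libraries. Neither is a member of the cycle.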

How the results depend on the processing

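The members called stayed at 0 under every alternative run. No paired analysis was possible because the columns carry no replicate number, so the fit with that block was not run. Over all genes 0 calls became 152 with DESeq2, 18 with every gene of at least 1 count, 1 each with the newer quasi-likelihood method, the robust fit and an adjusted p under 0.1, and 0 to 252 when a library was left out (252 without H15, 2 without W32). The partner list gained 1 call with DESeq2 and 1 with genes of at least 1 count (Asns in both), and 0 to 1 when a library was left out. With DESeq2 the shuttle list (Slc25a10) and the regulator list (Cebpb) gained 1 each, and the regulators had 0 to 2 when a library was left out. Eif2s1 passed with DESeq2 (log2 fold change -0.44, adjusted p = 0.0156, range over alternatives 0.0156 to 0.633). With library totals alone the signs of Otc (-0.036), Arg1 (-0.065), Slc25a15 (-0.055), Slc25a13 (-0.016) and Glul (-0.012) turned negative. When a library was left out, Otc ran from -0.036 to 0.16, Arg1 from -0.033 to 0.10, Slc25a15 from -0.033 to 0.094 and Glul from -0.022 to 0.14. The log2 difference in the ratio of Gls2 to Glul ran from -0.065 to 0.16 and in that of Ass1 to Asl from -0.058 to 0.078. That of Cps1 to Glul ran from 0.033 to 0.23 (exact p = 0.0571 without W33, the smallest that 4 against 3 libraries allow) and that of Otc to Cps1 from -0.26 to -0.0071 (without H15). The causes were not tested. Of 33 single-gene results, 5 changed sign under some alternative.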
